A study of Mus musculus with 12 samples.

Results

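Levels of 7 genes that restrain the cell cycle or belong to the core p53 response were followed in fibroblasts cultured from mouse embryos before reprogramming and at day 4. The genes were taken by symbol from a list of 10 genes of pathways that hinder reprogramming: the CDK inhibitors Cdkn1a, Cdkn2a, Cdkn2b and Cdkn1b, and Trp53, Mdm2, Ccng1, Bbc3, Bax and Gdf15. Of these, 7 were found among probe sets paired with 1 gene symbol only, each with 1 such probe set, out of 22180 genes in all. Trp53, Bax and Gdf15 are not analysed here. The 12 Affymetrix arrays formed 4 groups of 3: wild-type (WT) and Gdap1-null (KO) fibroblasts at day 0, and the same genotypes at day 4 of reprogramming. The product of Gdap1 sits in the outer membrane of mitochondria. Cells were grown in DMEM with serum and reprogrammed by transduction with the factors Oct4, Sox2, Klf4 and cMyc (OSKM). The label on treatment names a mock or an OSKM transduction overnight without saying which of them the day 0 cells had, so the day 4 changes hold the factors, the transduction and time in culture together. The sources used here do not give how the null allele was made or how many embryos gave the cells.

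CDK inhibitors bind cyclin-dependent kinases and keep the retinoblastoma proteins active, which holds a cell before S phase. The INK4 proteins p16INK4a (from Cdkn2a) and p15INK4b (Cdkn2b) block CDK4 and CDK6, whereas p21 (Cdkn1a) and p27 (Cdkn1b) act on cyclin-CDK complexes more widely. Cdkn2a also encodes p19ARF, which holds back MDM2, the ubiquitin ligase that degrades p53. The transcription factor p53 in turn drives Cdkn1a, Mdm2, Ccng1 and Bbc3 (PUMA), and in fibroblasts p53, p21 and the INK4 locus are known to limit the yield of induced pluripotent cells.

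The promoters of the members were examined for p53 and related motifs, because p53 targets and CDK inhibitors stood side by side in the list. RefSeq start sites of all 7 measured genes matched, with 11 windows of 250 bases before a start (build GRCm38.p6). The motifs were a pair of CATG cores with 6 bases of any kind (N) between them, which is the core of a full p53 element, the p53 consensus decamer, the forkhead motif GTAAACA and the E-box CACGTG, each searched on both strands. The windows shown are those of the 3 p53 targets with a p53 match and those of the 2 CDK inhibitors that changed most at day 4. Capitals mark motif matches. The Cdkn1a window is that of the first of its starts (chr17:29090729-29090978, plus strand).
Cdkn1a: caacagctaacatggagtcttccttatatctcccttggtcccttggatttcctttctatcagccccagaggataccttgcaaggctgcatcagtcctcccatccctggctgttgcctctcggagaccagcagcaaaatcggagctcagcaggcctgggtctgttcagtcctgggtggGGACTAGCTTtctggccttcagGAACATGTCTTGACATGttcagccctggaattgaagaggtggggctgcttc
The Mdm2 window lies at chr10:117710759-117711008 on the minus strand.
Mdm2: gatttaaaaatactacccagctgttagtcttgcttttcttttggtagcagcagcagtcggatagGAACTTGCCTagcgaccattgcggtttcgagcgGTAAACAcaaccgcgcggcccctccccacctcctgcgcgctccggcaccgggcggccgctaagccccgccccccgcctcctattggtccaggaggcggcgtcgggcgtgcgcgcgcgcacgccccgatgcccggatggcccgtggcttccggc
The Ccng1 window lies at chr11:40755287-40755536 on the minus strand.
Ccng1: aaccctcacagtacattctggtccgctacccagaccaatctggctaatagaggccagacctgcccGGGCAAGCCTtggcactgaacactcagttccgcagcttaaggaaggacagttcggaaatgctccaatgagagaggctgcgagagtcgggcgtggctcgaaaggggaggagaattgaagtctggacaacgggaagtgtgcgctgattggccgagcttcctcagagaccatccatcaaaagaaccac
The Cdkn2b window lies at chr4:89311033-89311282 on the minus strand.
Cdkn2b: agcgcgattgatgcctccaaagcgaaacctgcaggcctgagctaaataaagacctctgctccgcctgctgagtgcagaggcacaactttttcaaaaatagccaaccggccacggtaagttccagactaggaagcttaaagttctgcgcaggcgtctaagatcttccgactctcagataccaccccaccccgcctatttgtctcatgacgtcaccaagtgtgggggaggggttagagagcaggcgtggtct
The Cdkn1b window lies at chr6:134920151-134920400 on the plus strand.
Cdkn1b: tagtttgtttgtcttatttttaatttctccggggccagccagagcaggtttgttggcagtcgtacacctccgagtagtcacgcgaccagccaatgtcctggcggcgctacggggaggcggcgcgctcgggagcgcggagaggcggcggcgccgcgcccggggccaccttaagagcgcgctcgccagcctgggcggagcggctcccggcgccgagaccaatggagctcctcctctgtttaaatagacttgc

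The Cdkn1a window held 2 decamers, GGACTAGCTT at 73 and GAACATGTCT at 51 bases before the start, and the second overlapped the paired CATG cores, CATGTCTTGACATG, at 48 bases before it. That longer motif was present in 0.49% of 32851 windows of 27025 genes. Mdm2 held the decamer GAACTTGCCT at 186 and Ccng1 held GGGCAAGCCT at 185 bases before the start, and the decamer was present in 7.13% of all windows. GTAAACA (3.17% of all windows) was found in Mdm2 at 153 bases before the start and, on the other strand, in the window of the second Bbc3 start. CACGTG (6.02%) was found in that of the third Bbc3 start. The windows of Cdkn2a, Cdkn2b and Cdkn1b, of the second Cdkn1a start and of the first Bbc3 start held none of these letters. A match describes the sequence and is not a measured binding site.

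The arrays were nearly level, with medians over the genes analysed of 5.22 to 5.32 (log2). All 10 fibroblast markers lay above the median of all genes, with array means of 10.0 to 10.4. WT day 4 array 1 stood apart from the others, with a mean Pearson r across genes of 0.987 to the other arrays of its group, the lowest of the 12, and the highest mean of 10 macrophage and blood markers (7.37, against 6.46 to 6.71 in the other WT arrays). Such r was 0.997 for each day 0 array and 0.987 to 0.994 for day 4 arrays, so arrays of a group were less alike at day 4. Whether arrays of a group came from separate cultures or animals is not in the labels, so p-values measure the spread between these samples, which may be technical. The labels name no batch. The mean level of Gdap1 ranked at the 14.1 percentile of genes, too low to check the genotype.

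**Figure D1:**
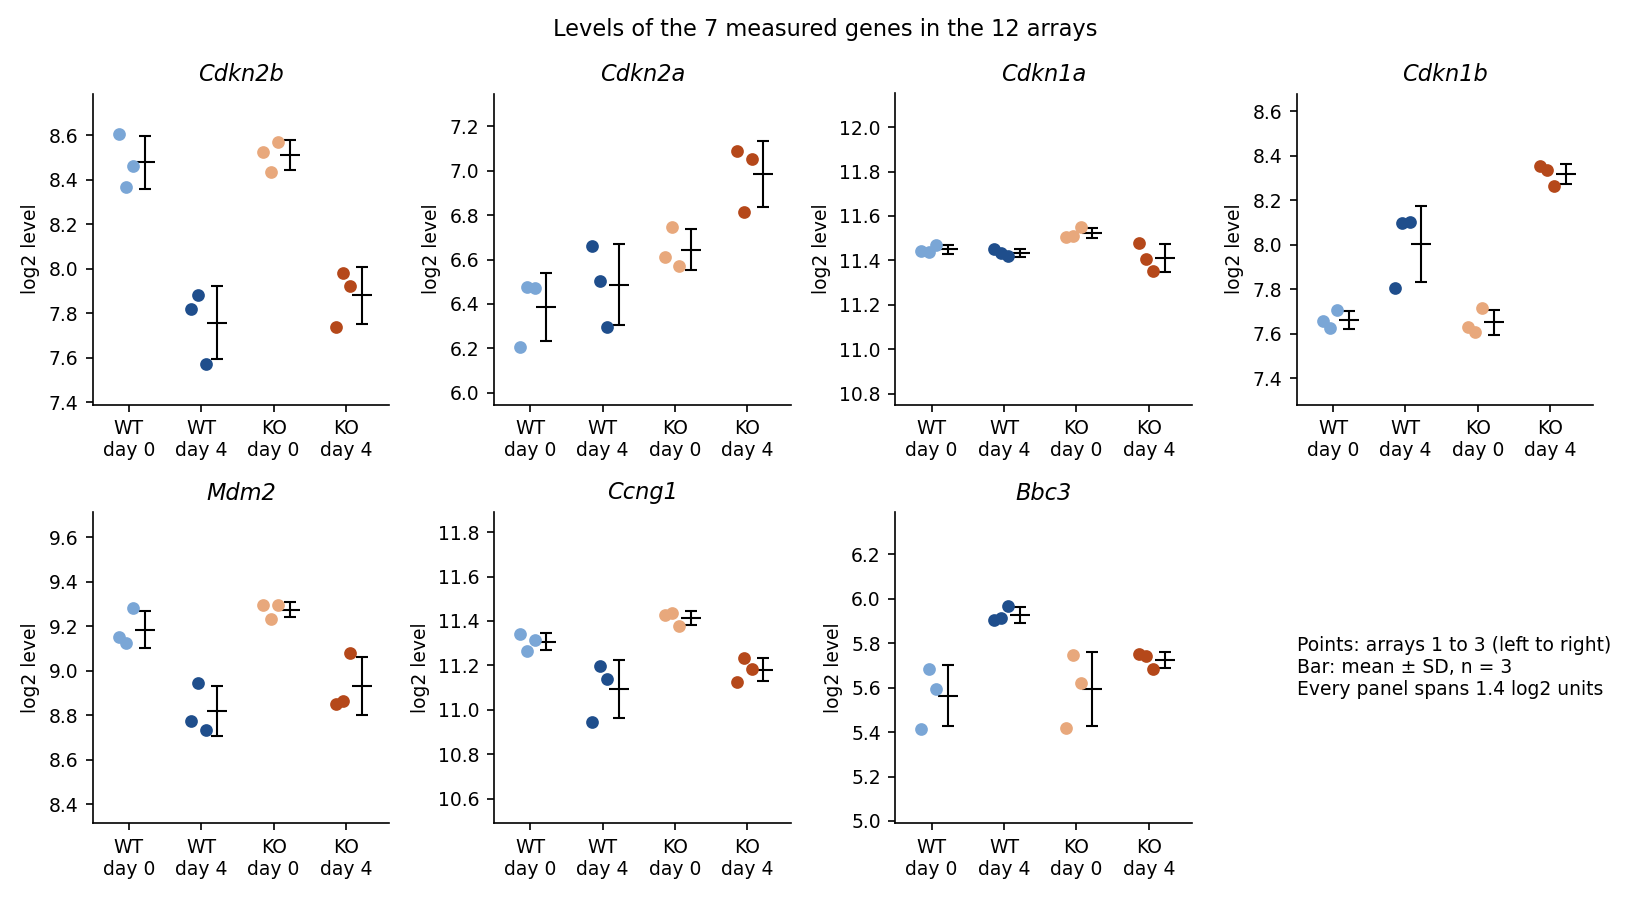
Log2 level of each measured gene in the 12 arrays, with 1 panel per gene, points for arrays and bars for the mean ± SD (n = 3). Cdkn2b and Mdm2 were lower at day 4 in both genotypes, Cdkn1b was higher at day 4 and highest in KO cells, and the 12 Cdkn1a points span 0.20.

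Among the INK4 genes, Cdkn2b fell at day 4 in both genotypes. Its log2 levels were 8.60, 8.37 and 8.46 in WT day 0 arrays and 7.82, 7.88 and 7.57 at day 4. In KO cells they were 8.53, 8.44 and 8.57 at day 0 and 7.74, 7.98 and 7.92 at day 4. Every day 4 array lay below every day 0 array. The gene fell by 0.72 ± 0.10 on the log2 scale in WT cells (SE, n = 3 per group, limma adjusted p = 0.000201), which is 1.65-fold, and by 0.63 ± 0.10 in KO cells (adjusted p = 0.000402), which is 1.55-fold. In the order of the group means, the step from KO day 4 to WT day 0 was 0.60 against a pooled SD of 0.12. The neighbours WT and KO at day 4 (0.12 apart) and WT and KO at day 0 (0.03 apart) overlapped and did not differ beyond their spread. KO minus WT was 0.03 ± 0.10 at day 0 (adjusted p = 0.925) and 0.12 ± 0.10 at day 4 (adjusted p = 0.442), with a 95% interval of -0.10 to 0.34 at day 4.

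Cdkn2a was higher in KO than in WT cells at day 4. The single probe set cannot tell the p16INK4a transcript from that of p19ARF. WT levels were 6.21, 6.47 and 6.47 at day 0 and 6.66, 6.50 and 6.30 at day 4. In KO cells the levels were 6.61, 6.75 and 6.57 at day 0 and 7.09, 6.81 and 7.05 at day 4. The KO day 4 arrays were the 3 highest of the 12, and the WT days overlapped. KO exceeded WT by 0.50 ± 0.11 at day 4 (SE, n = 3 per group, adjusted p = 0.00863), or 1.41-fold. At day 0 the KO arrays also lay above the WT arrays without overlap, but the difference of 0.26 ± 0.11 did not pass (adjusted p = 0.268). The day 4 change was 0.34 ± 0.11 in KO cells (adjusted p = 0.0376) and 0.10 ± 0.11 in WT cells (adjusted p = 0.606). The test of the difference between these changes did not pass (0.24 ± 0.16, adjusted p = 0.473, 95% interval -0.11 to 0.59). The KO rise at day 4 no longer passed without KO day 0 array 1 (adjusted p = 0.101) or 3 (0.118), or without KO day 4 array 1 (0.124) or 3 (0.110), nor after median centring (0.0584).

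The 2 INK4 genes lie next to each other on chromosome 4 and had different profiles. Cdkn2b fell at day 4 in both genotypes, and for Cdkn2a no fall was seen in either.

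Cdkn1a, the p21 gene, had nearly the same level in all 12 arrays. It gave 11.44, 11.44 and 11.47 in WT day 0 arrays, 11.45, 11.43 and 11.42 in WT day 4 arrays, 11.51, 11.51 and 11.55 in KO day 0 arrays, and 11.48, 11.41 and 11.35 in KO day 4 arrays. The whole range was 0.20, and 0.252% of all genes had a smaller SD over the 12 arrays. The level ranked at the 99.7 percentile of genes, on a scale whose highest value was 13.35. Whether the array still resolves small changes at so high a level was not tested. The day 4 change was -0.01 ± 0.07 in WT cells (SE, n = 3 per group, adjusted p = 0.920, 95% interval -0.16 to 0.13) and -0.11 ± 0.07 in KO cells (adjusted p = 0.228, 95% interval -0.25 to 0.03). KO day 0 arrays were the 3 highest, by a mean of 0.07 over WT day 0 (adjusted p = 0.657). The other 3 groups overlapped with their neighbours in the order of means.

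Cdkn1b, the p27 gene, rose at day 4 and was highest in KO cells. The levels were 7.66, 7.62 and 7.70 in WT day 0 arrays and 7.81, 8.10 and 8.10 at day 4. In KO cells they were 7.63, 7.61 and 7.71 at day 0 and 8.35, 8.33 and 8.27 at day 4. The day 0 groups overlapped, the WT day 4 arrays lay above them, and all KO day 4 arrays lay above all others. The rise was 0.34 ± 0.09 in WT cells (SE, n = 3 per group, adjusted p = 0.0118), or 1.27-fold, and 0.67 ± 0.09 in KO cells (adjusted p = 8.34e-05), or 1.59-fold. KO exceeded WT at day 4 by 0.31 ± 0.09 (adjusted p = 0.0219). The rises differed by 0.33 ± 0.12, which did not pass over all genes (adjusted p = 0.161, unadjusted 0.0201).

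WT day 4 array 1 was the low point among the WT day 4 levels of Cdkn1b. Without it the WT rise was 0.44 (adjusted p = 0.000971), KO minus WT at day 4 was 0.22 (adjusted p = 0.0492) and the difference of the rises was 0.23 (adjusted p = 0.185). The WT rise did not pass without WT day 4 array 3 (adjusted p = 0.0513) or in a fit to the compared groups alone (0.0509). The day 4 difference between genotypes did not pass without KO day 4 array 1 (0.0645) or 2 (0.0528), with array weights (0.0525), or in a fit to the compared groups alone (0.111).

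Of the p53 targets, Mdm2, which encodes the ligase that degrades p53, fell at day 4 in both genotypes. It gave 9.15, 9.12 and 9.28 in WT day 0 arrays and 8.77, 8.94 and 8.73 at day 4, and in KO cells 9.30, 9.23 and 9.29 at day 0 and 8.85, 8.86 and 9.08 at day 4. Day 4 lay below day 0 without overlap in each genotype. The fall was by 0.37 ± 0.09 in WT cells (SE, n = 3 per group, adjusted p = 0.00808), 1.29-fold, and by 0.34 ± 0.09 in KO cells (adjusted p = 0.00921), 1.27-fold. The genotypes overlapped on both days, with KO above WT by 0.09 on day 0 (adjusted p = 0.695) and by 0.11 on day 4 (adjusted p = 0.402). In the order of means, only the step from KO day 4 to WT day 0 (0.25, pooled SD 0.11) separated neighbours without overlap.

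Ccng1, which encodes cyclin G1, a p53 target that feeds back on MDM2, was lower at day 4 in KO cells. WT levels were 11.34, 11.27 and 11.31 at day 0 and 10.95, 11.20 and 11.14 at day 4. In KO cells the levels were 11.43, 11.43 and 11.38 at day 0 and 11.13, 11.23 and 11.18 at day 4. Day 0 lay above day 4 in each genotype without overlap, and KO lay above WT at day 0. The fall in KO cells was by 0.23 ± 0.08 (SE, n = 3 per group, adjusted p = 0.0385), and the WT change of -0.21 ± 0.08 missed the threshold (adjusted p = 0.0696). These changes differed by -0.02 ± 0.11 (adjusted p = 0.955, 95% interval -0.26 to 0.22). The genotype difference at day 0 was 0.11 ± 0.08 (adjusted p = 0.573).

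The Ccng1 calls hung on single arrays. The KO fall did not pass without KO day 0 array 1 (adjusted p = 0.1004), 2 (0.103) or 3 (0.0671), KO day 4 array 1 (0.114) or 3 (0.0792), or WT day 0 array 1 (0.0525) or 3 (0.0516), nor after quantile normalization (0.112). The WT change passed without WT day 4 array 2 (0.0419), after a filter on low levels (0.0490) and with a trended robust prior (0.0152). Without WT day 4 array 1 it was -0.14 (adjusted p = 0.220).

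Bbc3, which encodes the BH3-only death protein PUMA, rose at day 4 in WT cells. It gave 5.41, 5.68 and 5.60 in WT day 0 arrays and 5.90, 5.91 and 5.97 at day 4. In KO cells the levels were 5.42, 5.75 and 5.62 at day 0 and 5.75, 5.74 and 5.68 at day 4. The WT day 4 arrays were the 3 highest of the 12, and the KO days overlapped. The WT rise was 0.36 ± 0.09 (SE, n = 3 per group, adjusted p = 0.0134), 1.29-fold, and did not pass without WT day 0 array 1 (adjusted p = 0.0690). The KO change was 0.13 ± 0.09 (adjusted p = 0.341), and the difference of the changes was -0.23 ± 0.13 (adjusted p = 0.382). KO minus WT at day 4 was -0.20 ± 0.09 (adjusted p = 0.156), although the arrays did not overlap.

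**Figure D2:**
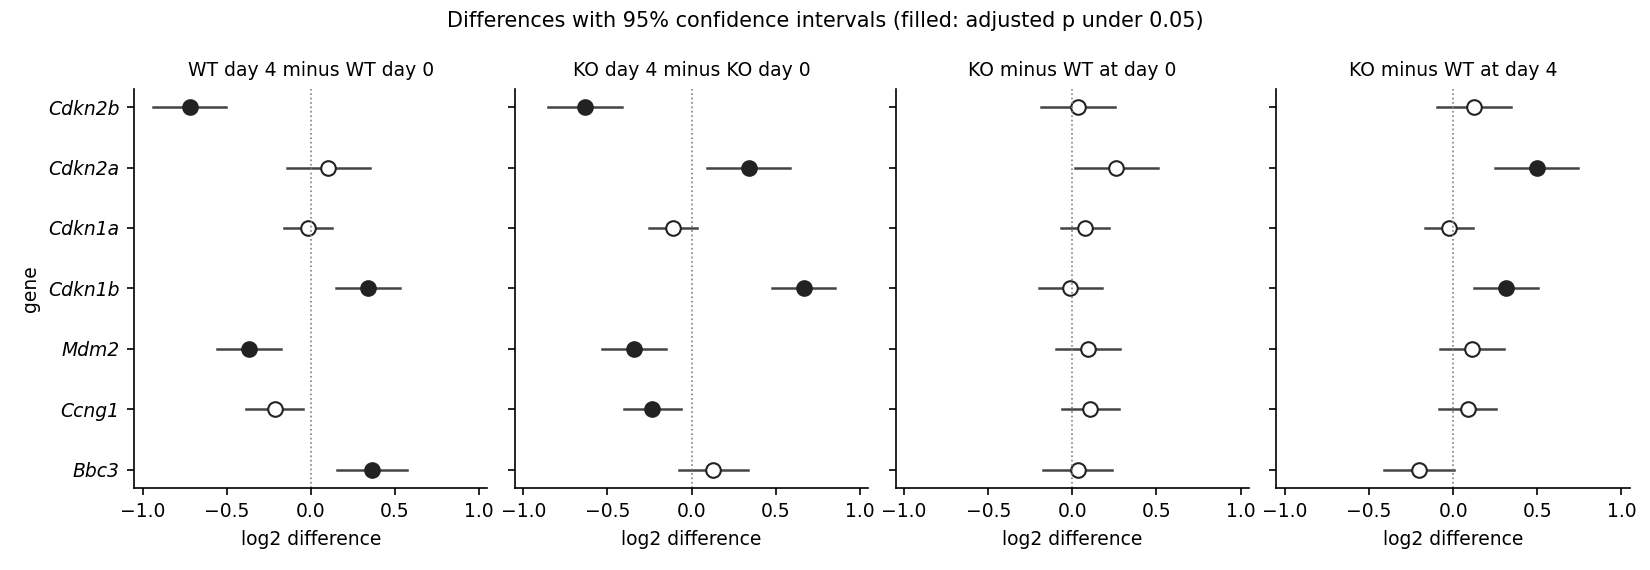
Log2 differences (x axis) of the 7 measured genes in 4 comparisons with 95% confidence intervals from limma, filled where the adjusted p was under 0.05. Cdkn2b and Mdm2 lie left of 0 and Cdkn1b right of 0 in both day 4 comparisons, no gene is filled for KO minus WT at day 0, and Cdkn2a and Cdkn1b are filled for KO minus WT at day 4.

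Counted together, 4 of 7 members passed at day 4 in WT cells, 2 higher (Cdkn1b and Bbc3) and 2 lower (Cdkn2b and Mdm2), where 22.9% of all genes passed (11.1% higher, 11.7% lower). In KO cells 5 of 7 passed, 2 higher (Cdkn2a and Cdkn1b) and 3 lower (Cdkn2b, Mdm2 and Ccng1), against 30.8% of all genes (13.8% higher, 16.9% lower). Passing in both genotypes were Cdkn2b and Mdm2 as lower (8.11% of all genes) and Cdkn1b as higher (7.43%). The median change of the 7 was -0.01 in WT and -0.11 in KO cells, and that of all genes was -0.01 in each. Between genotypes, 0 of 7 passed at day 0 in limma (5.6% of all genes, 2.48% higher and 3.12% lower), with Cdkn2a the 1 member under an unadjusted p of 0.05 (0.0406). At day 4, 2 of 7 passed, where 20.7% of all genes did, and both were higher in KO cells (8.34% of all genes were higher and 12.4% lower). For the difference of the day 4 changes 0 of 7 passed in limma (3.95% of all genes, 2.15% higher and 1.81% lower), with Cdkn1b the 1 member under an unadjusted p of 0.05.

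Arrays of the groups did not overlap for 5 of 7 members in WT day 4 against day 0 (36.3% of all genes), 6 of 7 in KO (45.3%), 3 of 7 between genotypes at day 0 (29.5%) and 3 of 7 at day 4 (31.6%). Without WT day 4 array 1 the numbers of members past the threshold were the same in all 5 comparisons.

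Genes with profiles most like those of the 3 members whose group means spanned the widest range were found by the root mean square difference of centred log2 levels over the 12 arrays, among 17070 genes. For Cdkn2b these were Msn (0.077), Kcnd1 (0.082) and Trp53inp2 (0.090). For Cdkn1b they were Pot1b (0.060), Tbl1xr1 (0.066) and Trp53inp1 (0.068), the last a p53 target. For Cdkn2a they were Ankrd28 (0.091), Zbtb4 (0.0997) and Hltf (0.0998). The day 4 changes of Pot1b were 0.36 in WT and 0.65 in KO cells, beside 0.34 and 0.67 for Cdkn1b.

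Of the other 3 CDK inhibitor genes, 1 rose at day 4 in each genotype, by more than any of the 7 members. The share of all genes that rose was 11.1% in WT and 13.8% in KO cells. Cdkn1c, which encodes p57, rose by 1.74 ± 0.14 in WT cells (SE, n = 3 per group, adjusted p = 2.03e-06) and by 1.57 ± 0.14 in KO cells (adjusted p = 3.82e-06). It was lower in KO cells at day 4 by 0.74 (adjusted p = 0.00239), which is opposite in sign to Cdkn1b and Cdkn2a. At day 0 it was lower in KO cells by 0.57 (adjusted p = 0.0253), and this did not pass without WT day 0 array 1 (0.0774) or 2 (0.117), or KO day 0 array 2 (0.119) or 3 (0.0712). Cdkn2c, the p18INK4c gene, was lower in KO cells at day 4 by 0.57 (adjusted p = 0.00657). Its KO day 4 change was -0.39 (adjusted p = 0.0315), and did not pass without KO day 0 array 2 (0.0901) or 3 (0.091) or KO day 4 array 1 (0.134). Cdkn2d, the p19INK4d gene, was higher in KO cells at day 4 by 0.36 (adjusted p = 0.0401), and this did not pass when 1 array was left out, unless it was array 1 of WT day 4 or array 3 of KO day 4 (adjusted p up to 0.16).

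Of 12 measured cyclins, CDKs and pocket proteins, 3 rose and 3 fell in WT cells at day 4 (11.1% and 11.7% of all genes). In KO cells 2 rose and 4 fell (13.8% and 16.9% of all genes). The count of WT falls was 0 without WT day 0 array 1 and 1 without WT day 0 array 3 or WT day 4 array 1, and the count of KO rises was 4 without WT day 4 array 1. Ccnd1, the cyclin D1 gene whose product the INK4 proteins oppose, rose by 0.82 ± 0.08 in WT (adjusted p = 7.5e-06) and 0.87 ± 0.08 in KO cells (adjusted p = 3.99e-06). Rb1, a retinoblastoma protein gene, rose by more, 1.401 in WT (adjusted p = 4.69e-05) and 1.768 in KO cells (adjusted p = 6.98e-06). Both Rb1 rises passed in all 12 fits that left out 1 array. Cdk4, the direct target of the INK4 proteins, was lower in KO cells at day 4 by 0.54 ± 0.09 (adjusted p = 0.00119). Ccna2, the cyclin A2 gene of S phase, was lower there by 0.57 ± 0.10 (adjusted p = 0.00178). Between genotypes at day 0 limma called 0 of 12 (5.6% of all genes), and Ccna2 had the smallest p (-0.25, adjusted p = 0.220).

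Many proliferation genes were lower at day 4, and many were lower in KO than in WT cells on that day. Of 16 mitosis genes, 9 fell at day 4 in WT cells (11.7% of all genes) and 11 in KO cells (16.9%). At day 4, 11 were lower in KO than WT cells (12.4% of all genes). The median change was -0.38 in WT and -0.79 in KO cells. The difference of the day 4 changes passed for 1 of the 16 genes, Cdc20 (3.95% of all genes). That count was 8 without WT day 4 array 1 and 0 or 1 when another array was left out. The mean of the centred levels was 0.31 to 0.37 in WT day 0 arrays, -0.18 to 0.15 in WT day 4, 0.12 to 0.19 in KO day 0 and -0.53 to -0.45 in KO day 4 arrays. Its relation to the levels of the CDK inhibitors, which went different ways, was not tested.

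**Figure D3:**
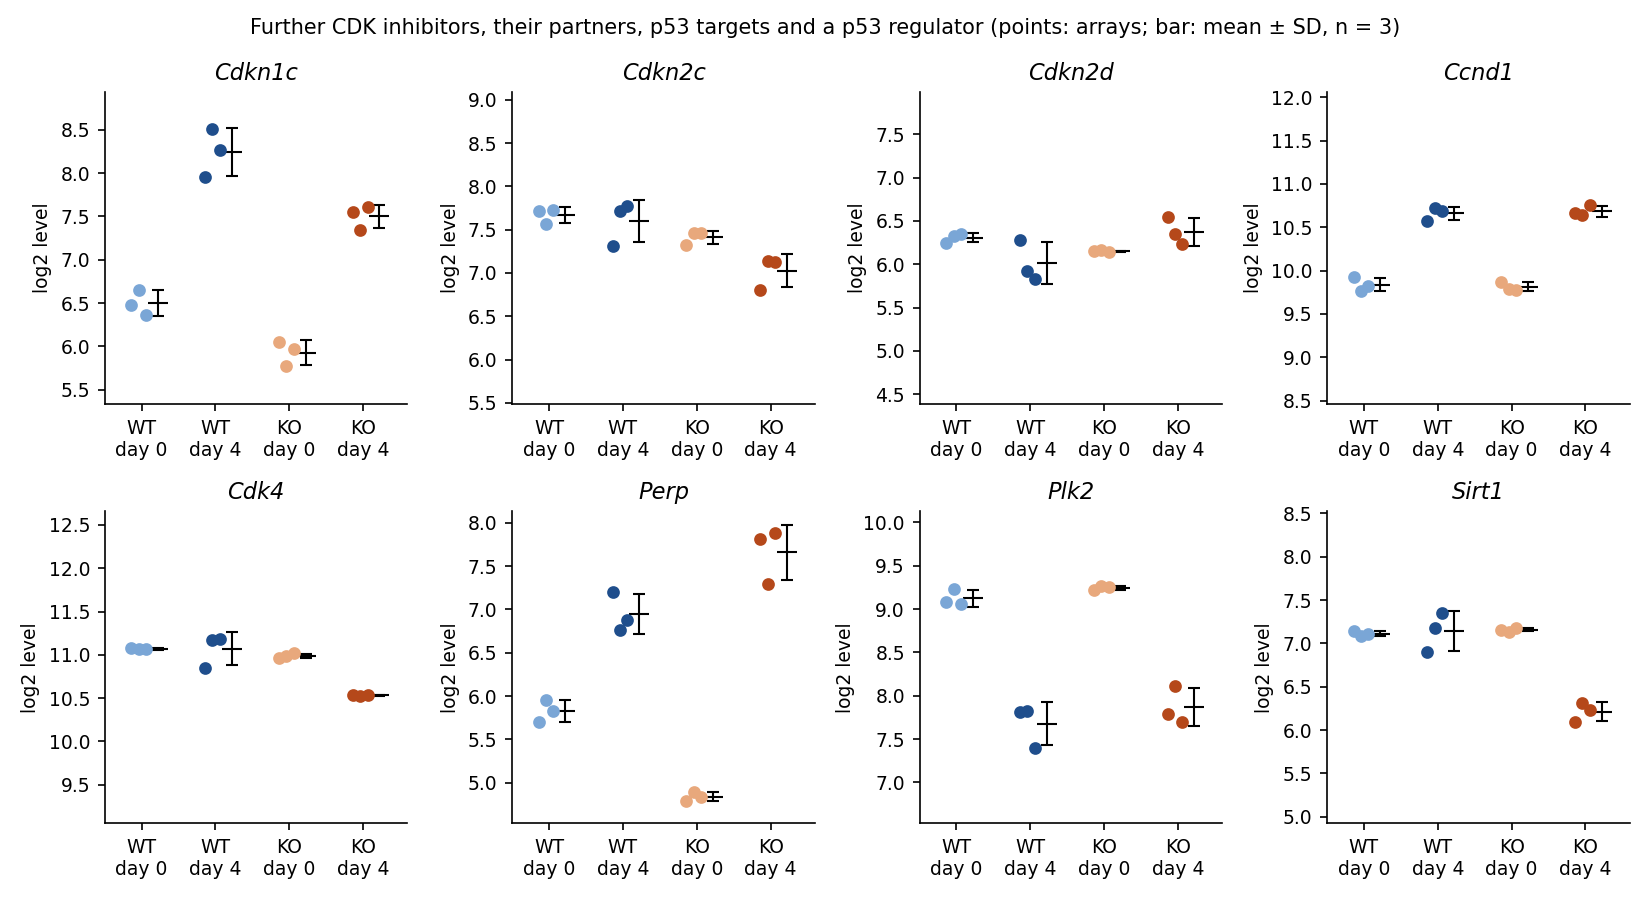
Log2 levels (y axis) of 8 related genes in the 12 arrays, with points for arrays and bars for the mean ± SD (n = 3). Cdkn1c rose and Plk2 fell at day 4 in both genotypes, and Cdk4 and Sirt1 were lowest in KO day 4 arrays.

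Other p53 targets went both ways. Of 17 growth arrest and feedback targets, 4 rose and 3 fell in WT cells at day 4 (11.1% and 11.7% of all genes). In KO cells 3 rose and 3 fell (13.8% and 16.9% of all genes). The medians were 0.07 in WT and 0.04 in KO cells. Plk2, a polo-like kinase gene, fell by 1.45 ± 0.13 in WT (adjusted p = 5.81e-06) and by 1.38 ± 0.13 in KO cells (adjusted p = 7.09e-06), in the direction of Mdm2. Sesn2, which encodes a stress protein that restrains mTORC1, fell by 0.91 ± 0.11 and 1.38 ± 0.11. Trp53cor1, the long noncoding RNA known as lincRNA-p21, lies beside Cdkn1a and rose by 0.58 ± 0.10 in WT and 0.91 ± 0.10 in KO cells, whereas the Cdkn1a change did not pass in either.

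Of 15 death targets, 3 rose and 6 fell in each genotype, with a median of -0.17 in both. Over all genes 11.1% rose and 11.7% fell in WT cells, and 13.8% rose and 16.9% fell in KO cells. Between genotypes at day 4, 6 were higher and 0 lower in KO cells in limma, with a median of 0.18, where 8.34% of all genes were higher. The count was 2 without KO day 4 array 1, 3 without KO day 4 array 2, and at most 5 when another array was left out. The difference of the day 4 changes passed for 1 of the 15, Perp (3.95% of all genes), and for 2 without WT day 4 array 1.

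Perp, which encodes a membrane protein of p53-driven death and of desmosomes, gave 5.83 ± 0.13 (SD, n = 3) in WT day 0, 6.95 ± 0.23 in WT day 4, 4.84 ± 0.05 in KO day 0 and 7.66 ± 0.32 in KO day 4 arrays. Its rise was 1.12 in WT and 2.82 in KO cells, and the difference of 1.70 ± 0.21 passed (adjusted p = 0.00132). Perp was already lower in KO than in WT cells at day 0, by 0.99 (adjusted p = 0.00145). At day 4 Perp was higher in KO than in WT cells by 0.71 ± 0.15 (adjusted p = 0.00496). Keratinocytes are a cell type that uses Perp, and their markers had array means of 3.804 to 4.41. Of 4 measured, 2 lay under the 25th percentile of genes (Krt15 and Dsg3). At day 4, 2 of the 4 rose in WT cells (11.1% of all genes). In KO cells 2 rose and 1 fell (13.8% and 16.9% of all genes). In KO against WT cells at day 4, 0 of the 4 were higher and 2 lower (8.34% and 12.4% of all genes). Their median difference was -0.10, opposite in sign to that of Perp. A link between these markers and Perp was not tested. Pmaip1, which encodes the BH3-only protein NOXA and so a functional relative of Bbc3, fell in WT cells by 0.56 ± 0.10 (adjusted p = 0.00113), opposite to Bbc3. Of 12 other BCL2 family genes, 3 rose and 3 fell in WT cells (11.1% and 11.7% of all genes). In KO cells 2 rose and 3 fell (13.8% and 16.9% of all genes). The KO falls numbered 1 without WT day 0 array 1, WT day 4 array 2, KO day 0 array 1 or 2, or KO day 4 array 3.

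Of 13 further targets, mainly of DNA repair and metabolism, 4 rose and 5 fell in WT cells (11.1% and 11.7% of all genes). In KO cells 5 rose and 5 fell (13.8% and 16.9% of all genes). The WT rises numbered 2 without WT day 0 array 1 or WT day 4 array 3, the WT falls 3 without KO day 0 array 1, WT day 4 array 1 or any one of the WT day 0 arrays, and the KO rises 3 without KO day 0 array 2. Gpx1, a glutathione peroxidase gene, fell by 0.49 ± 0.07 in WT (adjusted p = 0.000371) and fell by 0.73 ± 0.07 in KO cells (adjusted p = 1.36e-05). Ephx1 rose by 0.305 in WT (adjusted p = 0.00441) and by 0.74 in KO cells (adjusted p = 5.44e-06).

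Among 16 p53 regulators, 4 rose and 0 fell in WT cells at day 4 (11.1% and 11.7% of all genes). In KO cells 3 rose and 6 fell (13.8% and 16.9% of all genes). Between genotypes at day 4, 3 were higher and 7 lower in KO cells (8.34% and 12.4% of all genes). Sirt1, a deacetylase gene that acts on p53, was lower there by 0.93 ± 0.10 (adjusted p = 0.00013), and Chek1, a checkpoint kinase gene, by 0.74 ± 0.11 (adjusted p = 0.000616). Mdm4, the partner of Mdm2, rose at day 4 by 0.31 ± 0.09 in WT cells (adjusted p = 0.0251) and by 0.69 ± 0.09 in KO cells (adjusted p = 9.23e-05), while Mdm2 fell in both. The WT rise of Mdm4 did not pass without WT day 0 array 1 (adjusted p = 0.0612), 2 (0.0739) or 3 (0.0647), or without WT day 4 array 1 (0.0817) or 3 (0.0592). For 4 of 16 the difference of the day 4 changes passed, all with a lower change in KO cells (1.81% of all genes): Sirt1, Ep300, Setd7 and Chek1. The WT rises numbered 2 without WT day 0 array 1. The higher genes in KO day 4 cells numbered 0 without array 2 of WT day 4 or array 1 of KO day 4, and 1 without array 3 of WT day 0 or of WT day 4 or any one of the KO day 0 arrays. The differences of changes numbered 1 without WT day 0 array 1, and 2 without WT day 0 array 3 or KO day 0 array 1 or 2.

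Of 14 regulators of the INK4 and ARF locus, 3 rose and 4 fell at day 4 in each genotype. Over all genes 11.1% rose and 11.7% fell in WT cells, and 13.8% rose and 16.9% fell in KO cells. At day 4, 4 were higher and 2 lower in KO than in WT cells (2 and 1 without WT day 4 array 3, and 1 lower without KO day 4 array 3). The shares of all genes were 8.34% higher and 12.4% lower. Ezh2, a Polycomb methyltransferase gene known to silence the locus, was lower in KO cells by 0.65 ± 0.11 (adjusted p = 0.00127), beside a higher Cdkn2a. Other repressors of the locus were higher there, Cbx7 by 0.78 ± 0.17 (adjusted p = 0.00591) and Hmga2 by 0.61 ± 0.13 (adjusted p = 0.00477). Hmga2 fell at day 4 in WT cells by 1.53 ± 0.13 and in KO cells by 1.22 ± 0.13. Tbx3, a repressor of p19ARF, was higher in KO cells at day 0 by 0.91 ± 0.08 (adjusted p = 3.01e-05). At day 4 Tbx3 was higher in KO cells by 0.30 (adjusted p = 0.0178), which did not pass in 2 of 12 fits that left out 1 array. Its day 4 change was -0.54 in WT and -1.15 in KO cells.

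**Figure D4:**
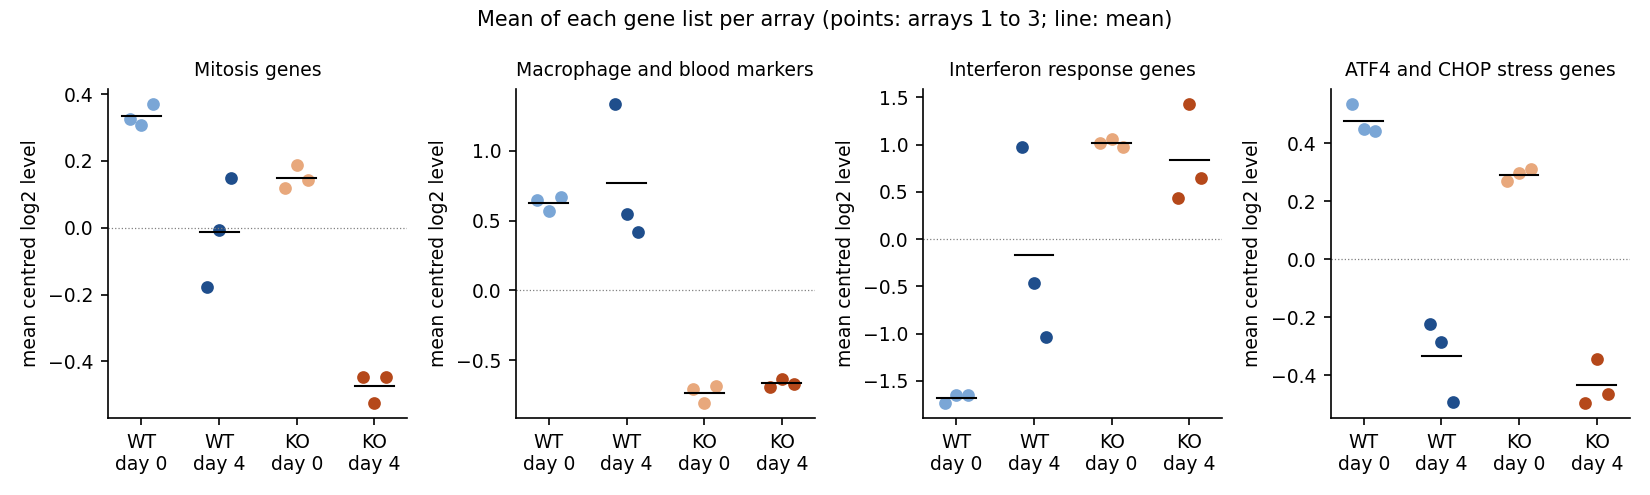
Mean centred log2 level (y axis) of 4 gene lists in each array, with points for arrays and lines for group means. Mitosis genes are lowest in KO day 4 arrays, macrophage and blood markers are lower in all KO than all WT arrays, and WT day 4 array 1 is highest for those markers (1.33).

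Markers of another cell type moved with the genotype. Of 10 macrophage and blood markers, 9 were lower in KO than in WT cells on each day (3.12% of all genes at day 0, 12.4% at day 4). The array means of the 10 were 6.61 to 6.71 in WT day 0 and 6.46 to 7.37 in WT day 4 arrays. In KO cells they were 5.24 to 5.36 at day 0 and 5.35 to 5.41 at day 4. None of the 10 lay under the 25th percentile of genes. Of 9 interferon response genes, 7 were higher in KO cells at day 0 (2.48% of all genes) and 4 at day 4 (8.34%). The day 4 count was 9 without WT day 4 array 1 and 0 to 2 when another array was left out. The part of either list in the higher Cdkn2a and Cdkn1b of KO day 4 cells was not tested, and in such bulk samples fewer cells of a type and less RNA per cell cannot be told apart.

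The stress genes driven by ATF4 and CHOP, with which Gdf15 is known to be induced, were lower at day 4. Of 10, 8 fell in WT cells (11.7% of all genes), and 7 fell (16.9%) and 1 rose (13.8%) in KO cells. The rise was lost in 9 of 12 fits that left out 1 array. Chac1, a glutathione-degrading enzyme gene, fell by 2.19 ± 0.13 in WT (adjusted p = 3.4e-07) and fell by 1.83 ± 0.13 in KO cells (adjusted p = 1.08e-06). Sesn2 belongs to this list as well as to the p53 targets.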

How the data were processed

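Biotin-labelled cDNA from total RNA was measured on Affymetrix arrays with 1 colour. The authors deposited log2 probe-set levels, 1 column per array, made with Affymetrix Expression Console per the submitters' processing notes. How they were corrected for background, normalized and summarised, which bears on the spread between arrays, is not given in the sources used here. No further normalization or filter was applied. Of 41345 probe sets, 23521 had 1 symbol, 1814 several and 16010 none, and the last 2 kinds were left out. A gene with several probe sets (1082 genes) was taken as that with the highest mean over the 12 arrays, which left 22180 genes. The table held 0 columns of other samples.

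One linear model with 4 group means was fitted to all arrays with limma 3.58.1 in R 4.3.3 (8 residual degrees of freedom), and 5 comparisons were tested with two-sided moderated tests and Benjamini-Hochberg adjustment over all genes at 0.05. Changes carry standard errors, group means carry SD, and precision is limited by how many arrays there are. The titles number the arrays 1 to 3 in each group. Deviations of same-numbered arrays correlated over 0.1 in 2 of 18 pairs (r from -0.06 to 0.18). Both joined WT day 4 with KO day 4, for arrays 2 (0.18) and 3 (0.12). The labels do not say whether equal numbers share a culture or transduction, and such correlations cannot settle it. The main fit treated the arrays as unpaired. It took 1 spread per gene over all 4 groups, although arrays of a group were less alike at day 4 than at day 0.

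All 10 genes of the list are named. Of each further gene list, the members with the smallest p among those past the threshold were eligible (at most 4, or all where 5 or fewer passed). The members and the lists were chosen with earlier results of these data known. Alternatives were a filter at the 25th percentile of levels, quantile normalization, median centring, the average of probe sets, a trended robust prior, array weights, a block for the replicate number, a fit of the groups compared, and omission of each array.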

Additional observations from a re-analysis of the deposited data

Results flagged for a closer look

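For 13 genes of the lists the test of the difference between the KO and WT day 4 changes passed, and each is given with KO minus WT on the log2 scale. Perp differed by 1.70 ± 0.21 (SE, limma adjusted p = 0.00132), with a rise of 1.12 in WT and 2.82 in KO cells. Sirt1 differed by -0.97 ± 0.15 (adjusted p = 0.0046), with changes of 0.03 in WT and -0.94 in KO cells. Cd80 differed by 0.75 ± 0.12 (adjusted p = 0.0062), from -0.27 in WT to 0.48 in KO cells. Ifit1, an interferon-induced gene, differed by -3.74 ± 0.69 (adjusted p = 0.012), and its WT day 4 arrays gave 9.38, 7.93 and 6.68. Dcxr differed by -0.87 (adjusted p = 0.0122) and Tbx3 by -0.61 (adjusted p = 0.0127).

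The other 7 did not pass in every fit that left out 1 array. Ep300 differed by -0.58 (adjusted p = 0.0186, up to 0.0558 without 1 array), Setd7 by -0.57 (0.0186, up to 0.0585), Ephx1 by 0.43 (0.024, up to 0.071) and Chek1 by -0.70 (0.0255, up to 0.0696). Vldlr differed by 0.94 (0.0317, up to 0.0833), Cdc20 by -0.56 (0.0361, up to 0.0975) and Polk by 0.47 (0.0366, up to 0.0936).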

How the results depend on the processing

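Cdkn2b and Mdm2 at day 4 in both genotypes, Cdkn1b at day 4 in KO cells, and Cdkn2a between genotypes at day 4 passed in all 20 alternative fits. Of these, the average of probe sets could not move a member's level, since each member had 1 probe set. Over the members, 652 of 693 alternative values kept their direction and their side of the threshold, 22 no longer passed, 3 passed newly, and 16 that did not pass changed sign. With the replicate number as a block, 3 members passed in KO cells at day 4 (5 without it), as Cdkn2a (adjusted p = 0.0592) and Ccng1 (0.0524) were lost, and it changed no other call of a member. Leaving out 1 array gave 3 to 5 there, and 1 to 2 between genotypes at day 4. The latter count was 1 with array weights and 1 in a fit to the compared groups alone (2 as reported). Over all genes, those past the threshold between genotypes at day 0 numbered 1242, against 2562 with array weights, 2453 in the compared groups alone and 769 to 1936 with 1 array left out. At day 4 they numbered 4596, against 1923 in the compared groups alone and 2946 to 5929 with 1 array left out. For the difference of changes they numbered 877, against 1852 with array weights and 395 to 2140 with 1 array left out. The causes, the shared spread of the main fit among them, were not tested. With 3 arrays a group, small differences such as those of Cdkn1a cannot be resolved below their intervals.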
